A study of Mus musculus with 11 samples.

Results

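The EGF-family ligands are secreted or membrane-tethered growth factors that bind the ERBB receptors. The 8 ligand genes described here, Areg, Tgfa, Epgn, Hbegf, Btc, Ereg, Nrg1 and Nrg4, were taken by symbol from the 21846 genes of a count table, and all 8 were found. The table came from RNA sequencing of 11 libraries of mouse mammary carcinoma cell lines that carry a human HER2 transgene (FVBhuHER2 mice). The study asked how transcripts differ between HER2-positive and HER2-negative cells, and between a line that keeps HER2 and a line that tends to lose it.

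MamBo89, the HER2-stable line from tumor A, gave 4 HER2-positive libraries. Library 1 was an untreated culture taken here as the clone that the study's methods list, library 2 was untreated parental cells, library 3 had 30 days of trastuzumab at 30 µg/ml and then 30 days without it, and library 4 had 60 days of trastuzumab. MamBo43, the HER2-labile line from tumor B, gave 1 untreated HER2-positive library. Trastuzumab-treated MamBo43 (MamBo43 TRT) gave 2 libraries that had lost HER2, library 1 on the 30-day schedule with 30 days of withdrawal and library 2 on the 60-day schedule. In MamBo43 cultures kept with trastuzumab, the paper still found a small share of HER2-positive cells and islets of polygonal cells. The MamBo43 TRT libraries may therefore hold more than 1 kind of cell. MamBo38, the HER2-loss line from a tumor that grew after MamBo43 cells were injected, gave 4 HER2-negative libraries. Its libraries 1 and 2 were untreated, library 3 was on the withdrawal schedule and library 4 on the 60-day schedule. The lines came from virgin female mice, all were grown in the same serum-rich medium, and all HER2-negative cells descend from tumor B. The human HER2 transgene is not a row of the mouse gene table. Libraries of 1 line differ in treatment or in name, and the labels do not say whether any were independent repeats, so the p-values measure the spread between these libraries, with schedule and any technical spread included.

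Each ligand is made as a membrane protein with an EGF-like domain and is released by proteases, mainly ADAM17 for most members. Areg, Tgfa and Epgn bind EGFR, whereas Hbegf, Btc and Ereg bind EGFR and ERBB4, and the neuregulins bind ERBB3 or ERBB4. HER2 (ERBB2) has no known ligand of its own and signals as the partner of ligand-bound EGFR, ERBB3 or ERBB4. In the mammary gland Areg is the EGFR ligand through which estrogen drives ductal growth.

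Total counts ranged from 17040454 to 27127662 per library, with a median of 20592201, and 3 counts corresponded to 0.114 to 0.179 CPM (counts scaled to the library total). Levels are CPM over library sizes scaled by the TMM method. A ligand counted as called when its adjusted p was under 0.1 and it differed by 1 or more on the log2 scale in either direction. No libraries of a group were identical. The clone stood apart in MamBo89, with 1697 to 2202 genes differing at least 2-fold from each other MamBo89 library, against 55 to 265 among those other libraries. MamBo38 library 2 carries another number in its name than the other MamBo38 libraries and differed from them in 561 to 725 genes, against 10 to 14 among those. That number is the one in the names of all MamBo89, MamBo43 and MamBo43 TRT libraries, and the labels do not say what it marks. The summed level of 12 epithelial markers was 3221 to 4434 CPM in MamBo89, 4272 in MamBo43, 2846 and 596 in MamBo43 TRT libraries 1 and 2, and 1.54 to 3.004 in MamBo38. The sum of 10 mesenchymal markers ran from 335 to 2485 CPM in MamBo89, was 1043 in MamBo43, and ran from 36009 to 42137 in MamBo43 TRT and from 21132 to 29925 in MamBo38. Of the 8 leukocyte markers, Adgre1 and Cd3e were at 0 in all libraries and Ptprc at 0.0556 CPM at most, while Cd14 reached 418.

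In the GENCODE annotation of GRCm38, 4 of the ligand genes are neighbours on chromosome 5. Epgn lies at chr5:91027464-91035215, Ereg at chr5:91074622-91093646 and Areg at chr5:91139599-91148432, all on the plus strand. Btc lies at chr5:91357261-91402994 on the minus strand. These 4 genes are the only 4 protein-coding genes in the 375.5 kb they span. Tgfa is at chr6:86195223-86275719 (plus strand), Nrg1 at chr8:31814551-32884029 (minus strand) and Nrg4 at chr9:55220222-55326844 (minus strand). For Areg, Hbegf, Btc and Epgn, none of the 75-base windows of their exons, the length of the reads, occurs in another gene. The shared share was 0.694% for Tgfa, 1.65% for Ereg, 3.81% for Nrg1 and 4.86% for Nrg4. Overlapping genes cannot be told apart in these windows because the library kit does not mark strand.

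RefSeq promoter entries (GRCm38.p6) matched 5 of the 8 ligands. The 250 bases before the gene start are shown for Areg and Tgfa, which were both lower in MamBo38 than in MamBo89, and for Btc, which was not called between these lines. They lie at chr5:91139349-91139598 (Areg, plus strand), chr6:86194972-86195221 (Tgfa, plus strand) and chr5:91402995-91403244 (Btc, minus strand). Each is written 5′ to 3′ along the gene's strand. Capitals mark matches, on either strand, to the E-box CAGGTG, a core sequence that Snail and ZEB factors can bind, to the cyclic-AMP response element TGACGTCA and to the GC box GGGCGG, which reads CCGCCC on the other strand.
Areg: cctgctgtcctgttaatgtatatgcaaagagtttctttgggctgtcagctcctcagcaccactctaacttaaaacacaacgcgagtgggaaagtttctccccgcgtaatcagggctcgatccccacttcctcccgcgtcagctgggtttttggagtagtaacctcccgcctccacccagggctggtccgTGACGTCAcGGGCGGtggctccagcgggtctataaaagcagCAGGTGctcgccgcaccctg
Tgfa: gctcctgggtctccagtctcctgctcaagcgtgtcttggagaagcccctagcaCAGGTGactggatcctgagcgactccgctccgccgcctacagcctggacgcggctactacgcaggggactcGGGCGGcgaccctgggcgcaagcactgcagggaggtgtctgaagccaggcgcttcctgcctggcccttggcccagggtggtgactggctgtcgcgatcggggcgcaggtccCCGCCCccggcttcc
Btc: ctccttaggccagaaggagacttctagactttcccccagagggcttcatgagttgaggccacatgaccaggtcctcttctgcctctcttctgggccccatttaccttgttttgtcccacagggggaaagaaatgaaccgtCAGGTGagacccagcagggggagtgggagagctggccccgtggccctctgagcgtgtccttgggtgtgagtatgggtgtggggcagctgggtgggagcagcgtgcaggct
The E-box letters were found 20 bases before the start in Areg, 197 in Tgfa, 110 in Btc and 245 in Epgn, whose window is not shown, and the Nrg4 window held none of the motifs searched. They occur in 17.2% of all 32851 promoter windows of this length. The cyclic-AMP response element was found in Areg, 61 bases before the start, and occurs in 1.55% of windows. A GC box was found 52 bases before the start in Areg and 15 and 126 bases before it in Tgfa, and occurs in 32.7% of windows. The AP-1 letters TGAGTCA (4.46% of windows) and the TEAD letters GGAATG (12.6%) were in none of the 5 ligand promoters. These matches overlap no other match and are descriptions of the letters only.

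Between HER2-negative (n = 6) and HER2-positive libraries (n = 5), 5 of the 8 ligands were called, against 32.8% of the 12364 genes tested. Ereg and Nrg1 were higher (higher calls, 15.8% of genes) and Hbegf, Tgfa and Epgn lower (lower calls, 17% of genes). All HER2-negative libraries come from tumor B and 4 of the 5 HER2-positive ones from tumor A. Fits with the tumor as a covariate and fits within tumor B therefore both set the HER2-negative libraries against the single MamBo43 library. They are 2 fits of the same contrast, here and in the gene lists below. When the tumor was added to the fit as a covariate, 2 of these calls held, Ereg (5.68, adjusted p = 0.00161) and Hbegf (-1.47, adjusted p = 0.0912), and within tumor B 2 held, Ereg and Nrg1. For 4 of the 8, Ereg, Nrg1, Hbegf and Tgfa, the groups did not overlap in any library, against 34.9% of all genes. The median log2 fold change of the 8 ligands was -1.42, and that of all tested genes was -0.04.

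**Figure D1:**
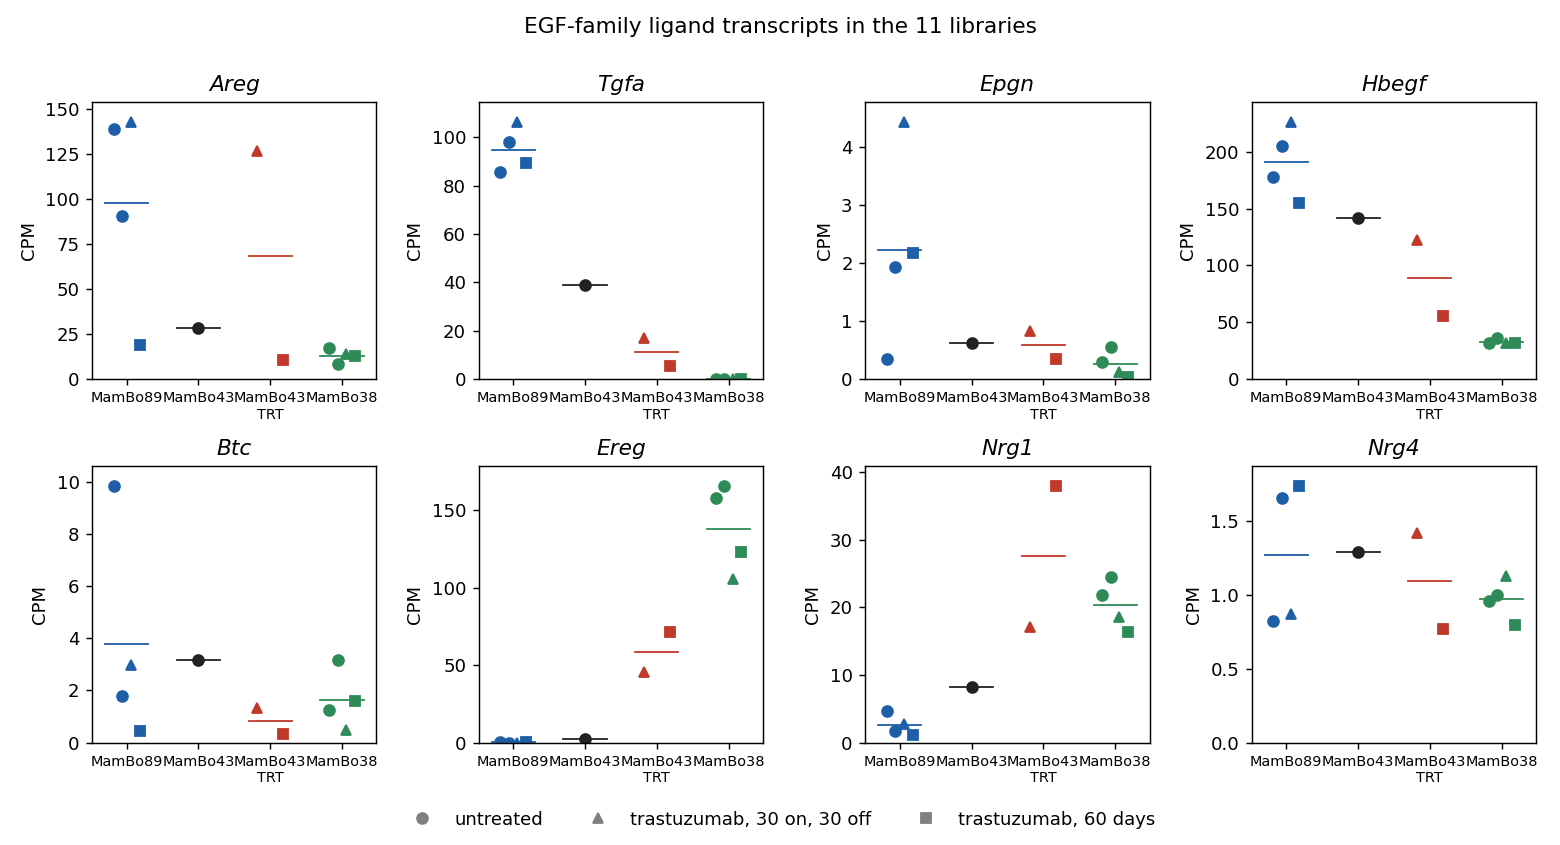
Level of each EGF-family ligand (CPM, linear axes from 0) in the 11 libraries by group; each point is 1 library, its shape gives the trastuzumab schedule and the horizontal line is the group mean. Tgfa is at 0 in all 4 MamBo38 libraries, where Ereg reaches its highest values (105.5 to 165.8 CPM).

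Areg, amphiregulin, had 138.5, 90.6, 142.4 and 19.0 CPM in MamBo89 libraries 1 to 4 and 28.1 CPM in MamBo43. It had 126.5 and 10.4 CPM in MamBo43 TRT libraries 1 and 2. In MamBo38 it had 17.01, 8.29, 13.7 and 12.8 CPM. All MamBo38 libraries lay below all MamBo89 libraries, but the 60-day library of MamBo89 exceeded the highest MamBo38 library by little. Areg was lower in MamBo38 than in MamBo89 (log2 fold change -2.91, SE 0.75, edgeR adjusted p = 0.00596), and it was not called between HER2-negative and HER2-positive libraries (-1.41, SE 0.82, adjusted p = 0.166). That second value rested on 1 library. Without MamBo43 TRT library 1 it was -2.73 with an adjusted p of 0.00189, whereas within the libraries of tumor B it was 0.13 with an adjusted p of 0.958.

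Tgfa, transforming growth factor alpha, had 85.5, 98.03, 106.1 and 89.5 CPM in MamBo89 and 38.9 CPM in MamBo43. In MamBo43 TRT libraries 1 and 2 it had 16.9 and 5.29 CPM, and no count in any MamBo38 library. The 4 groups were in the order MamBo89, MamBo43, MamBo43 TRT and MamBo38 with no overlap. Against MamBo38, where 3 counts over the group were taken as the floor, Tgfa was at least 2580-fold higher in MamBo89, at least 1063-fold higher in MamBo43 and at least 284-fold higher in MamBo43 TRT. It was lower in MamBo43 TRT than in MamBo43 (-1.82, SE 0.53, adjusted p = 0.037) and lower in HER2-negative libraries as a group (-4.50, SE 1.46, adjusted p = 0.0231), although not within tumor B (-3.42, adjusted p = 0.377). The difference between MamBo43 and MamBo89 was not called (-1.28, SE 0.54, adjusted p = 0.145). The epithelial marker sum had the same order in MamBo43, MamBo43 TRT library 1, MamBo43 TRT library 2 and MamBo38, and its part in the result was not tested. In bulk RNA, fewer cells of a type and less RNA per cell cannot be told apart.

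Epgn, epigen, was a low-level transcript, at 0.341, 1.93, 4.43 and 2.18 CPM in MamBo89 and 0.626 CPM in MamBo43. It had 0.833 and 0.345 CPM in MamBo43 TRT and 0.288, 0.556, 0.119 and 0.0380 CPM in MamBo38. The clone was the lowest MamBo89 library and overlapped MamBo38. Epgn was lower in MamBo38 than in MamBo89 (-3.16, SE 0.85, adjusted p = 0.00763) and lower in HER2-negative libraries (-2.38, SE 0.76, adjusted p = 0.0221). Neither call held among the untreated libraries alone (adjusted p = 0.377 and 0.443) or among the libraries that share 1 number in their names (adjusted p = 0.285 and 0.162).

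Hbegf, heparin-binding EGF-like growth factor, a gene on the minus strand of chromosome 18, had 177.6, 204.8, 226.0 and 155.1 CPM in MamBo89 and 141.8 CPM in MamBo43. In MamBo43 TRT it had 122.1 and 55.7 CPM, and in MamBo38 it had 32.0, 36.4, 31.7 and 31.2 CPM. The groups followed the same order as for Tgfa with no overlap. Hbegf was lower in MamBo38 than in MamBo89 (-2.54, SE 0.23, adjusted p = 4.75e-06) and than in MamBo43 (-2.11, SE 0.30, adjusted p = 0.00031). It was also lower in HER2-negative libraries (-1.82, SE 0.37, adjusted p = 0.00178), but within tumor B that difference was not called (-1.49, adjusted p = 0.164). MamBo43 did not pass the test against MamBo89 (-0.43, SE 0.35, adjusted p = 0.434).

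Btc, betacellulin, had 9.84, 1.80, 2.97 and 0.435 CPM in MamBo89, with the clone highest and the 60-day library lowest. It had 3.17 CPM in MamBo43 and 1.32 and 0.345 CPM in MamBo43 TRT. MamBo38 libraries had 1.25, 3.17, 0.477 and 1.59 CPM, within the range of MamBo89. Btc was called in none of the 9 comparisons. Its difference between MamBo38 and MamBo89 was -1.21 (SE 0.84, adjusted p = 0.229). It was -0.077 without the clone (adjusted p = 0.927), and it was called without MamBo89 library 4 (-1.58, adjusted p = 0.0893). Between HER2-negative and HER2-positive libraries the difference was -1.42 (SE 0.72, adjusted p = 0.12). It was -0.61 without the clone (adjusted p = 0.462), and it was called without MamBo89 library 4 (-1.71, adjusted p = 0.0519) or MamBo38 library 2 (-1.84, adjusted p = 0.0597).

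Ereg, epiregulin, had 1, 0, 0 and 1 counts in the MamBo89 libraries and 55 counts, 2.15 CPM, in MamBo43. In MamBo43 TRT it had 45.9 and 71.3 CPM, and in MamBo38 it had 158.2, 165.8, 105.5 and 122.8 CPM. The groups did not overlap and were in the reverse of the order seen for Tgfa and Hbegf. The ratio of pooled rates of MamBo38 to MamBo89 was 5356 (exact binomial 95% interval 1482 to 44234), and that of MamBo43 to MamBo89 was 83.7 (22.1 to 708.5). These intervals cover counting error only. Ereg was higher in MamBo38 than in MamBo43 (5.998, SE 0.50, adjusted p = 8.77e-06) and higher in HER2-negative libraries (7.80, SE 1.13, adjusted p = 0.000201), also within tumor B (5.65, adjusted p = 0.00841). The size of that second value turned on MamBo43, without which it was 11.8 (adjusted p = 7.72e-07), with 2 Ereg counts in all left in the HER2-positive group.

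Nrg1, neuregulin 1, whose receptors are ERBB3 and ERBB4, had 4.63, 1.66, 2.74 and 1.09 CPM in MamBo89 and 8.18 CPM in MamBo43. In MamBo43 TRT it had 17.1 and 37.9 CPM, and in MamBo38 it had 21.8, 24.5, 18.6 and 16.3 CPM. The lowest HER2-negative library exceeded the highest HER2-positive one, and the MamBo43 TRT libraries lay on both sides of 3 of the 4 MamBo38 libraries. Nrg1 was higher in MamBo38 than in MamBo89 (3.0004, SE 0.43, adjusted p = 0.000133). It was also higher in HER2-negative libraries as a group (2.62, SE 0.50, adjusted p = 0.00121). Against MamBo43 alone the value was 1.44 within tumor B, where it was called. With tumor of origin as a covariate, another fit of that contrast, it was 1.47 and was not called. Between MamBo38 and MamBo43 the difference was not called (1.31, SE 0.67, adjusted p = 0.143).

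Nrg4, neuregulin 4, a ligand of ERBB4, stayed between 0.767 and 1.74 CPM in the 11 libraries. Its groups overlapped between MamBo38 and MamBo89, and it was called in none of the 9 comparisons. The difference between HER2-negative and HER2-positive libraries was -0.34 (SE 0.31, adjusted p = 0.367).

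MamBo38 against MamBo89 thus gave 6 called ligands of 8, against 41.9% of the 13782 genes tested. Ereg and Nrg1 were higher (19.9% of genes higher) and Areg, Tgfa, Epgn and Hbegf lower (22% lower). For 5 of the 8 the groups did not overlap, against 59.3% of all genes. The lines come from different tumors, so HER2 status and tumor of origin cannot be told apart in this comparison. With MamBo38 represented only by library 2, which shares the number in its name with MamBo89, 4 ligands were called. Areg (-3.55, adjusted p = 0.14) and Epgn (-1.98, adjusted p = 0.285) were the 2 lost.

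MamBo38 against MamBo43, lines from 1 tumor, gave 3 called ligands, against 35.9% of genes. Ereg was higher, and Hbegf and Tgfa were lower. Areg was not called (-1.12, SE 1.04, adjusted p = 0.415). With MamBo38 library 2 alone, Ereg (6.27, adjusted p = 0.00202), Hbegf (-1.96, adjusted p = 0.0402) and Tgfa (adjusted p = 0.00356) were called. MamBo43 is a single library, and its spread is taken to be like that of the other groups in the fit.

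MamBo43 against all MamBo89 libraries compared HER2-positive cells of the labile line with the stable line, and gave 2 called ligands, both higher, against 18.9% of genes called, with 11% called higher and 7.86% lower. These were Ereg (adjusted p = 0.000103) and Nrg1 (1.69, SE 0.58, adjusted p = 0.0659). The call for Nrg1 was lost without MamBo89 library 2 (1.53, adjusted p = 0.124) or library 3 (1.73, adjusted p = 0.103). Against the 2 untreated MamBo89 libraries alone, again 2 ligands were called, against 7.4% of genes (4.87% higher, 2.53% lower). Ereg was higher and Areg lower (-2.01), whereas Nrg1 was not called (1.39). MamBo43 is a single library in this fit. Its only spread is that between the clone and the parental culture, which differed at least 2-fold in 1722 genes.

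**Figure D2:**
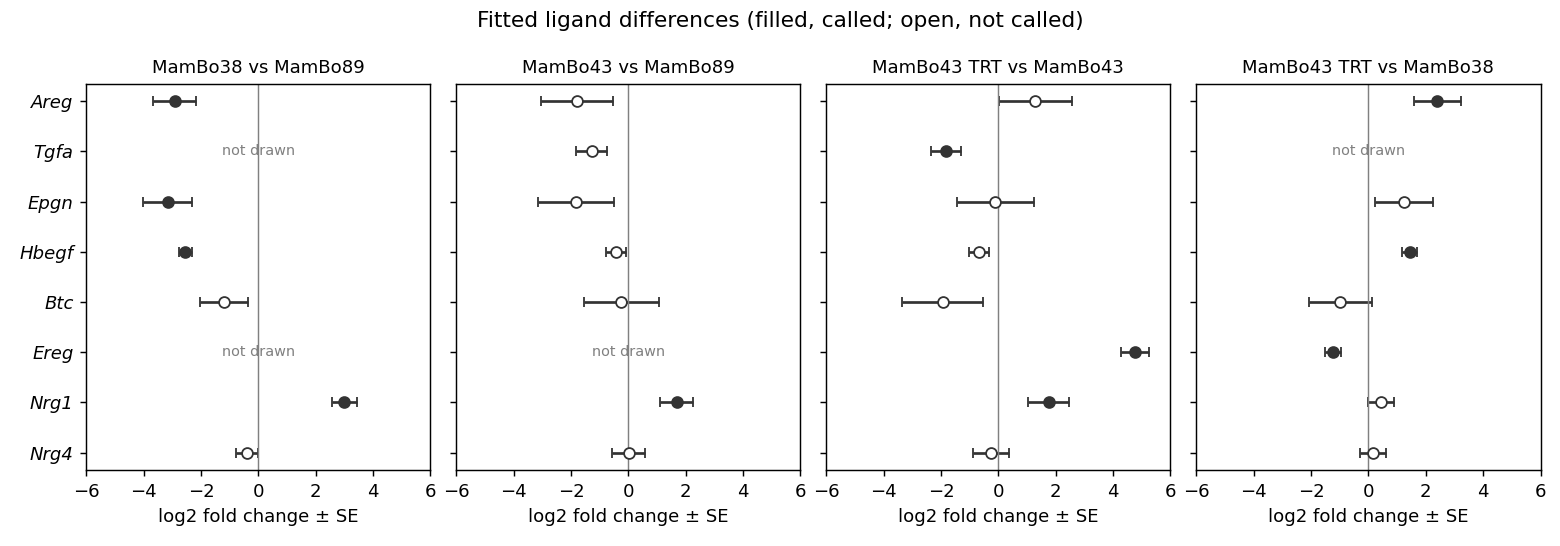
Fitted log2 fold change (first group over second) with its standard error for each ligand in 4 comparisons; filled points were called and open points were not, and points against a group with at most 2 counts in all are not drawn. MamBo38 had lower Areg, Epgn and Hbegf and higher Nrg1 than MamBo89, and MamBo43 TRT had higher Ereg and Nrg1 and lower Tgfa than MamBo43.

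MamBo43 after long-term trastuzumab was compared with untreated MamBo43. Of the 8 ligands 3 were called, against 29.1% of genes, with Ereg and Nrg1 higher (13.6% of genes) and Tgfa lower (15.5% of genes). Ereg rose from 2.15 CPM to 45.9 and 71.3 CPM (4.76, SE 0.48, adjusted p = 0.000137). Nrg1 rose less (1.75, SE 0.73, adjusted p = 0.0935), and its call was lost without the 60-day library (1.06, adjusted p = 0.359). Hbegf was lower in both treated libraries without passing the test (-0.68, SE 0.36, adjusted p = 0.183), and without the withdrawal library it was called (-1.38, adjusted p = 0.00582). Areg had 126.5 CPM in the withdrawal library and 10.4 CPM in the 60-day library, 1 above and 1 below the 28.1 CPM of untreated cells (1.28, SE 1.28, adjusted p = 0.475).

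The HER2-negative cells from culture and from the in vivo tumor were compared next. Between MamBo43 TRT and MamBo38, 4 ligands were called, against 20.4% of genes. Hbegf (1.44, SE 0.26, adjusted p = 0.00253), Areg (2.40, SE 0.83, adjusted p = 0.0508) and Tgfa (adjusted p = 0.000152) were higher in MamBo43 TRT (10.2% of genes higher). Ereg was lower (-1.24, SE 0.27, adjusted p = 0.00684; 10.2% of genes lower), and Nrg1 was not called (0.44, SE 0.46, adjusted p = 0.513). Without MamBo43 TRT library 1, the value for Areg was -0.31 and those for Hbegf and Ereg were 0.77 and -0.94, none of them called, and Tgfa alone remained. The call for Areg was also lost without MamBo38 library 2 (2.24, adjusted p = 0.107) or library 4 (2.39, adjusted p = 0.101). With MamBo38 represented by library 2 alone, Ereg (-1.51, adjusted p = 0.0594) and Tgfa (adjusted p = 0.0151) were called. The calls for Areg (3.04, adjusted p = 0.297) and Hbegf (1.28, adjusted p = 0.14) were lost there. Library 1 also had the higher epithelial marker sum of the pair, 2846 against 596 CPM, and its part in these differences was not tested.

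Trastuzumab was also given to MamBo89 and MamBo38, with 2 treated and 2 untreated libraries each. In MamBo89, 1 of the untreated libraries was the clone, 1697 to 2202 genes apart from the others at 2-fold. In MamBo38, untreated library 2 had another number in its name than both treated libraries, and was 561 to 725 genes apart. This spread within the untreated pairs limits both tests, so a lack of calls does not show a lack of effect. In MamBo89 edgeR called 0 of the 7 ligands tested and 0 of 12046 genes (0%), while 186 genes (1.54%) and 0 ligands had an unadjusted p under 0.05, and DESeq2 called 3 genes. Ereg was too low there to be tested. In MamBo38 edgeR called 0 of 6 ligands and 0 of 11861 genes (0%), while 503 genes (4.24%) and 2 ligands had an unadjusted p under 0.05, and DESeq2 called 4 genes. Those ligands were Ereg, at 158.2 and 165.8 CPM in untreated and 105.5 and 122.8 CPM in treated libraries (-0.52, SE 0.12, adjusted p = 0.663), and Nrg1 (-0.43, SE 0.15, adjusted p = 0.663). Tgfa and Epgn were too low in MamBo38 to be tested. The difference between the trastuzumab effects was tested in a fit chosen after the data were seen. For Ereg it was 5.28 between MamBo43 and MamBo38 (SE 0.50, adjusted p = 0.000931), where 19.6% of genes were called. Between MamBo43 and MamBo89, none of the ligands was called, against 22.2% of genes. For Ereg that comparison cannot decide, since the MamBo89 libraries held 1 count of it at most. Untreated MamBo43 is a single library in both comparisons.

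The 60-day library was compared with the withdrawal library over the 3 lines in a fit chosen after the data were seen. Areg was lower in the 60-day library of MamBo89 (19.0 against 142.4 CPM) and of MamBo43 (10.4 against 126.5 CPM), and near equal in MamBo38 (12.8 against 13.7 CPM). In the fit with line as a block, Areg differed by -2.30 (SE 0.70, adjusted p = 0.963). With edgeR 0 of 12207 genes (0%) passed, while 385 had an unadjusted p under 0.05, and DESeq2 was not run on this fit. The difference was -3.25 without MamBo38 (SE 0.25, adjusted p = 0.38), -1.56 without MamBo43 (SE 0.50, adjusted p = 0.999) and -1.93 without MamBo89 (SE 0.86, adjusted p = 0.863). Hbegf had the same sign in each line, with 155.1 against 226.0 CPM in MamBo89, 55.7 against 122.1 in MamBo43 and 31.2 against 31.7 in MamBo38 (-0.57, SE 0.22, adjusted p = 0.963). Epgn was also lower in the 60-day library of each line (-1.13, SE 0.38, adjusted p = 0.963), at 1 against 2 counts in MamBo38. Ereg was higher in that of MamBo43 and of MamBo38 (0.43, SE 0.18, adjusted p = 0.963).

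**Figure D3:**
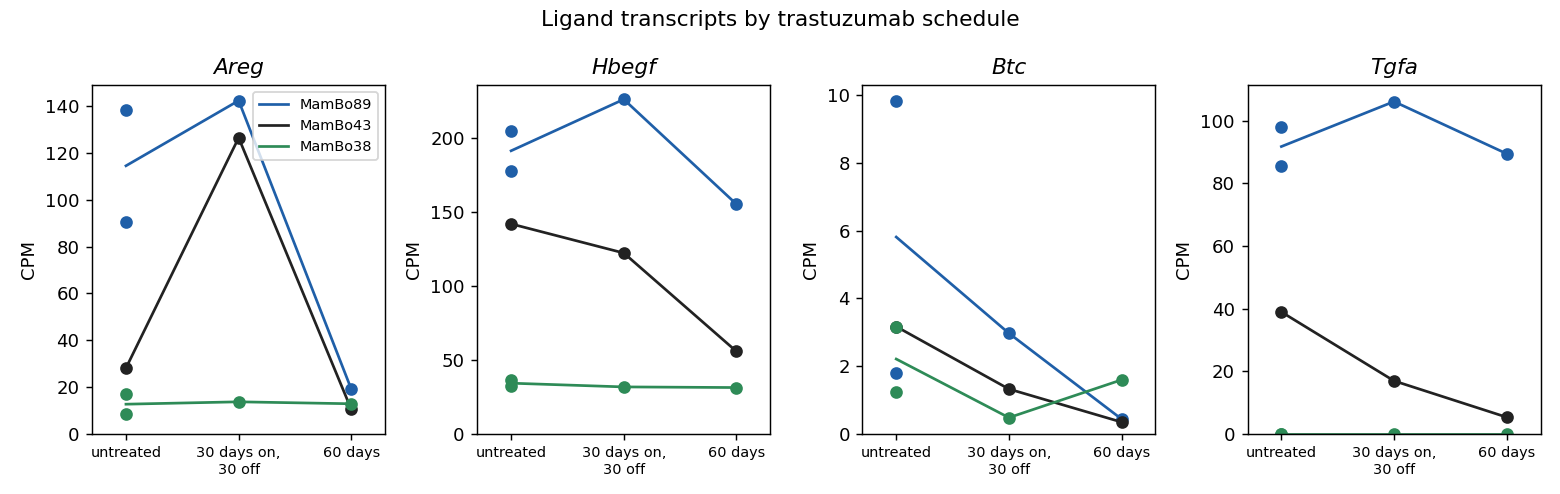
Levels (CPM, linear axes from 0) of 4 ligands by trastuzumab schedule in each line; points are libraries and lines join the means of the libraries at each schedule. Areg has 142.4 and 126.5 CPM after withdrawal and 19.0 and 10.4 CPM at 60 days in MamBo89 and MamBo43, and stays between 8.29 and 17.01 CPM in MamBo38.

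For levels between genes, CPM were divided by the kilobases of merged exons. On this per-length scale Areg led in MamBo89 (80.3 ± 47.3, SD, n = 4), followed by Hbegf (39.5 ± 6.41) and Tgfa (14.6 ± 1.42). The spread of Areg covered the level of Hbegf, and in the 60-day library Hbegf (32.1) exceeded Areg (15.7). The other 5 ligands had means of 1.23 or less. In MamBo43 the order was Hbegf (29.3), Areg (23.1) and Tgfa (5.998), with the other 5 at 0.79 or less.

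In MamBo38 Ereg led on the per-length scale (33.4 ± 6.94, SD, n = 4), above Areg (10.7 ± 2.96), Hbegf (6.79 ± 0.494) and Nrg1 (1.96 ± 0.349). Ereg made up 56.2% to 69.2% of the summed ligand level in the 4 libraries, and no library of Areg or Hbegf reached the lowest of Ereg, while the ranges of Areg and Hbegf overlapped. In MamBo89 Ereg made up 0.0208% at most, and Areg, Hbegf and Tgfa together nearly all. In MamBo43 TRT library 1, Areg made up 71.4% and Ereg 7.62%, whereas in library 2 the shares were 20.3% and 40.9%. The summed ligand level was 63.3 to 183.8 in MamBo89, 61.0 in MamBo43, 145.7 and 42.2 in MamBo43 TRT and 45.5 to 61.6 in MamBo38.

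**Figure D4:**
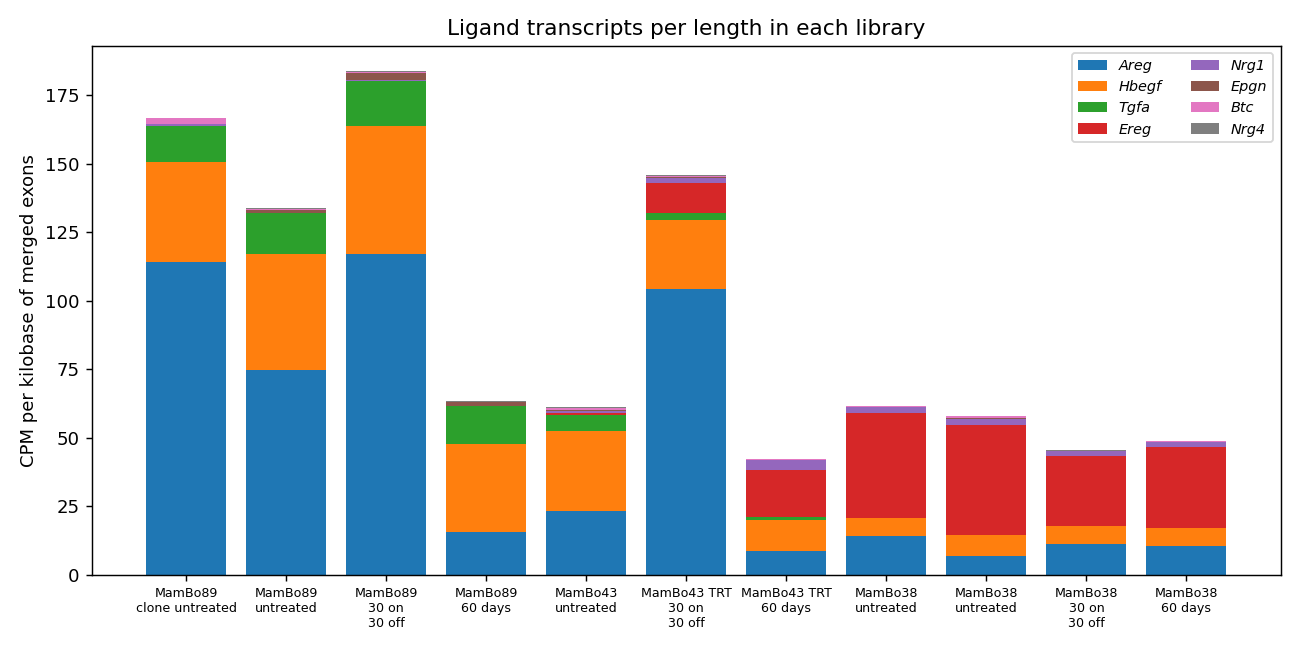
Stacked level of the 8 ligands per length (CPM per kilobase of merged exons, linear axis from 0) in each of the 11 libraries. Areg and Hbegf fill most of the MamBo89 and MamBo43 bars, and Ereg fills 56.2% to 69.2% of the MamBo38 bars.

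The 4 chromosome 5 neighbours did not share 1 pattern. Between MamBo38 and MamBo89, Ereg was higher, its neighbours Epgn (39.4 kb away) and Areg (46.0 kb away) were lower, and Btc (208.8 kb beyond Areg) was not called. In MamBo43 TRT against MamBo43, Ereg was the only 1 of the 4 that was called.

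**Figure D5:**
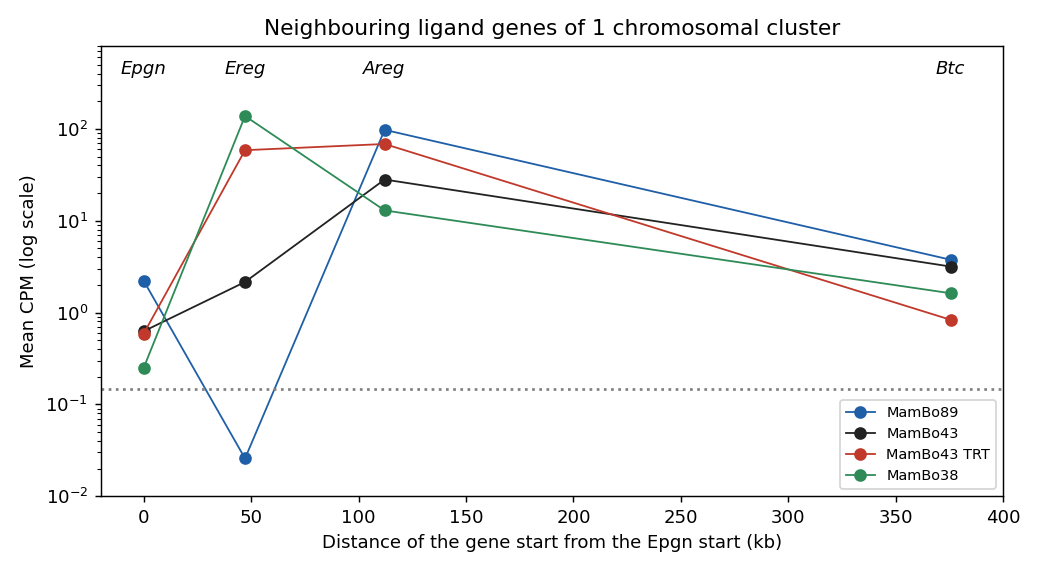
Mean level (CPM, log axis) of the 4 neighbouring ligand genes in each group against the distance of their starts from that of Epgn (kb); the dotted line is the CPM of 3 counts in a library of median depth (0.146), and lines join points of 1 group. Ereg runs from 0.0258 CPM in MamBo89 to 138.1 CPM in MamBo38, while the mean of Areg runs the other way between these lines (97.6 and 12.9 CPM).

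The genes most like each ligand were those with the smallest root mean square difference of centred log2(CPM + 1) over the 11 libraries, among 13782 genes. For Ereg they were Kcnab2 (0.28), Fkbp10 (0.36) and Emp3 (0.37). For Tgfa the nearest were Tmc4 (0.37) and Tns4 (0.39). Hbegf was followed most closely by Stat5b (0.23), and Nrg1 by Dis3 (0.35). For Areg the nearest gene, Rasgef1b, was farther away (0.67). These are descriptions over libraries that share lines.

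Of the family's other ligands, Nrg3 had no count in any library and Egf stayed at 2.11 CPM or below. Nrg2 was highest in MamBo43 (31.7 CPM), at 5.36 to 12.6 CPM in MamBo89, 11.4 and 6.67 CPM in MamBo43 TRT and 0.817 to 2.28 CPM in MamBo38. It was lower in MamBo38 than in MamBo89 (-2.69, SE 0.41, adjusted p = 0.000227), the opposite direction to Nrg1.

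The receptors were also measured. Egfr had 17.8 to 28.3 CPM in MamBo89, 103.4 CPM in MamBo43, 34.4 and 55.0 CPM in MamBo43 TRT and 15.4 to 34.0 CPM in MamBo38. It was higher in MamBo43 than in MamBo89 (2.23, SE 0.39, adjusted p = 0.00301) and was not called between MamBo38 and MamBo89 (-0.11, SE 0.28, adjusted p = 0.76). Erbb3, a receptor for Nrg1, had 114.4 to 137.2 CPM in MamBo89, 127.6 CPM in MamBo43, 23.9 and 6.83 CPM in MamBo43 TRT and 2.92 to 5.67 CPM in MamBo38, and was lower in HER2-negative libraries (-4.06, SE 0.54, adjusted p = 0.000117). The mouse Erbb2 row was lower as well (-2.76, SE 0.17, adjusted p = 1.32e-06), and whether reads of the human transgene fall in this row was not tested. Erbb4 had at most 5 counts in any library and none in HER2-negative libraries. In the HER2-negative libraries Nrg1 was thus higher, its receptor Erbb3 lower and Erbb4 without a count.

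A list of 15 genes linked to ligand processing and release held proteases, their partners and the inhibitor Timp3. Of these, 5 were called higher and 3 called lower between HER2-negative and HER2-positive cells, against 15.8% and 17% of all genes. These 8 calls became 4 with the tumor as a covariate and 3 within tumor B. Adam19, a protease that can cleave neuregulins, was higher (6.90, SE 0.90, adjusted p = 0.000104), with 12.3 to 52.7 CPM in HER2-negative and 0 to 0.861 CPM in HER2-positive libraries. Adam17 was not called (-0.34, SE 0.18, adjusted p = 0.1253). Of its partners, Rhbdf2 (-1.39, SE 0.19, adjusted p = 0.000152) and Frmd8 (-1.32, SE 0.23, adjusted p = 0.000622) were lower. Rhbdf2 had 99.9 to 135.0 CPM in MamBo89, 58.9 CPM in MamBo43 and 43.6 to 50.7 CPM in MamBo43 TRT. Frmd8 had 137.1 CPM in MamBo43 and 44.6 to 59.3 CPM in MamBo43 TRT. Cd9, a tetraspanin that associates with the Hbegf precursor, was lower too (-1.80, SE 0.31, adjusted p = 0.000636), and Adam8, Adam15, Bace1 and Rhbdl2 were higher. Bace1 was near level between MamBo43 (69.9 CPM) and MamBo43 TRT (68.0 to 73.0 CPM), while Adam8, Adam15 and Rhbdl2 were higher in MamBo43 TRT. In MamBo38 against MamBo89 the list had 6 higher and 5 lower (19.9% and 22% of all genes), and in MamBo43 TRT against MamBo43 it had 3 of each (13.6% and 15.5%). Adam12 was higher in MamBo43 TRT than in MamBo43 (4.01, SE 0.55, adjusted p = 0.000644), and lower in MamBo38 than in MamBo89 (-4.76, SE 0.46, adjusted p = 8.11e-06).

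Genes downstream of the receptors were counted in the same way. Of 10 ERK-responsive genes, 3 were called higher and 6 called lower between HER2-negative and HER2-positive cells, against the same 15.8% and 17% of all genes. These 9 calls became 5 with the tumor as a covariate and 6 within tumor B. Fosl1 (6.40, SE 0.76, adjusted p = 5.74e-05), Myc (1.67, SE 0.19, adjusted p = 3.85e-05) and Etv1 were higher, and Fos, Egr1, Etv4, Etv5, Ier3 and Ccnd1 lower. For Etv1 (2.99, SE 1.22, adjusted p = 0.0595) the groups overlapped, with 0.414 to 1.41 CPM in MamBo89 but 54.5 CPM in MamBo43, above the 41.1 CPM of both MamBo43 TRT libraries. The groups overlapped for Fos and Ccnd1 as well. For 6 of the 10 genes they did not overlap, against 34.9% of all genes. Of 15 feedback inhibitors of the pathway, 1 was higher (Lrig3, 3.35, SE 0.34, adjusted p = 2.31e-05) and 2 lower (Dusp6, -1.68, SE 0.25, adjusted p = 0.000231, and Dusp5), or 3 of 15 against 32.8% of all genes called. With 1 library left out, 3 to 6 of the feedback inhibitors were called. The median log2 fold change was -1.17 for the ERK-responsive genes and 0.11 for the feedback inhibitors, against -0.04 for all genes.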

How the data were processed

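RNA sequencing counts of 11 cell line libraries were analysed. The authors deposited expected counts per gene, made from single-end reads of 75 bases with STAR 2.5 and RSEM 1.3.0. The mm10 build is named in the submitters' processing notes, and the annotation is not given in the sources used here. Expected counts need not be whole, but 0 deposited values had a fraction.

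Groups came from the labels and treatment schedules from the labels too. Genes were filtered with filterByExpr (minimum count 10, minimum total 15) and tested with the quasi-likelihood test of edgeR 4.0.16 (R 4.3.3), with TMM scaling and Benjamini-Hochberg adjustment over all genes tested. A call needed an adjusted p under 0.1 together with a difference of 1 or more on the log2 scale, in either direction. Comparisons of lines used 1 fit over 4 groups, the HER2 comparison 2 groups, and the others their own libraries. The SE is the absolute log2 fold change over the square root of F. A fold against a group without counts used 3 counts over the group. Alternatives were DESeq2 1.42.0, its size factors, no filter, an adjusted p under 0.05, subsets of libraries and each library left out.

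On simulated data with 200 genes changed 8-fold, 95.5% were called in the HER2 comparison, 94.5% in MamBo38 against MamBo89, 89.5% in MamBo43 TRT against MamBo38 and 74.5% in MamBo43 TRT against MamBo43. The HER2 groups pool lines that differ, and each ligand had a larger fitted spread there than in MamBo38 against MamBo89. The 95.5% may therefore be too high for genes that differ between lines of a group, which was not tested. At the depth of 17040454 to 27127662 counts per library, the number of libraries limits precision, and intervals cover counting error only. Exon lengths and positions are from GENCODE M21 (GRCm38). All 8 ligands are named, with the 3 genes most like a ligand at most, and from the other lists the genes that illustrate each count. The members and lists were chosen with earlier results of these data known.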

Additional observations from a re-analysis of the deposited data

Results flagged for a closer look

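A single library lay far from the rest of its group in 5 of the 31 group and ligand combinations tested, and chance flags about 1 in 20 where the libraries of a group are alike. The HER2-negative and HER2-positive groups, which hold 4 of the 5, pool lines that differ, so that rate does not apply to them. In HER2-negative libraries, MamBo43 TRT library 1 (30 days of trastuzumab and 30 days without) was the highest for Areg (126.5 CPM, next 17.01), Hbegf (122.1 CPM, next 55.7) and Tgfa (16.9 CPM, next 5.29). Its epithelial marker sum was 2846 CPM, against 596 CPM in the 60-day library and 3.004 CPM or less in MamBo38, and the part of this in the ligand values was not tested. Among HER2-positive libraries, MamBo43 was the highest for Ereg (2.15 CPM, next 0.0544). In MamBo38, library 2, the one with another number in its name, was the highest for Hbegf (36.4 CPM, next 32.0).

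In a fit chosen after the data were seen, the trastuzumab effect on Ereg was 5.28 higher on the log2 scale in MamBo43 than in MamBo38 (SE 0.50, edgeR adjusted p = 0.000931; 19.6% of genes called). Untreated MamBo43 is a single library there. Between MamBo43 and MamBo89 no such difference could be measured, since the MamBo89 libraries held 1 Ereg count at most.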

How the results depend on the processing

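Over the ligands and comparisons, 650 of 717 values under another setting kept their direction and their side of the threshold, 28 lost a call, 16 gained one and 23 changed sign. The 5 ligands called between HER2-negative and HER2-positive libraries became 2 with tumor of origin as a covariate and 2 within tumor B, and Areg then had 0.16 and 0.13. Both of these fits compare with MamBo43 alone. DESeq2 called 6 and gave no adjusted p for Tgfa. For MamBo43 against MamBo89, 2 ligands became 1 at an adjusted p under 0.05, and 1 to 2 with a library left out. For MamBo43 against untreated MamBo89, 2 became 1 with DESeq2, with its size factors and at an adjusted p under 0.05, and no fit without 1 of the libraries had a residual degree of freedom. For MamBo43 TRT against MamBo38, 4 became 2 within the libraries that share 1 number in their names, and 1 to 4 with a library left out. For MamBo38 against MamBo43, 3 became 5 when these groups were fitted alone. Btc had 0.0049 in this comparison with MamBo38 library 2 as the only MamBo38 library. With a library left out, trastuzumab gave 0 to 2 called ligands in MamBo89, where Btc (-2.56) and Epgn (3.23) were called without library 2, and 0 to 1 in MamBo38, where Btc (-1.48) was called without library 1. The cause was not tested.

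Without 1 library, the sign changed as follows. In MamBo43 TRT against MamBo43, Areg ran from -1.46 to 2.171, Epgn from -0.88 to 0.41 and Nrg4 from -0.78 to 0.14. In MamBo43 against MamBo89, Btc ran from -0.62 to 0.93 and Nrg4 from -0.13 to 0.20. In MamBo43 TRT against MamBo38, Areg ran from -0.31 to 3.29, Nrg1 from -0.24 to 0.91 and Nrg4 from -0.33 to 0.55. For trastuzumab in MamBo89, Areg ran from -2.58 to 0.31, Hbegf from -0.29 to 0.24, Nrg1 from -1.52 to 0.22, Nrg4 from -0.50 to 0.65 and Tgfa from -0.029 to 0.21. In MamBo38, Areg ran from -0.39 to 0.68, with -0.39 also without the MamBo38 library whose name differs, and Nrg4 from -0.32 to 0.20. The labels give no replicate numbers that groups share, so none could serve as a block, and line was the block in the comparison of schedules. Depth limits Epgn, Nrg4 and Btc, with as few as 1, 15 and 8 counts in a library.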
